A study of Mus musculus with 22 samples.

Results

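The distal end of mouse chromosome 12, from 113.82 Mb to the last probe of the chromosome, was described in thymocyte DNA of Atm-deficient mice. Atm is a protein kinase that is switched on by broken DNA. The stretch holds 449 of the 235390 positioned probes of the array, between 113820180 and 117798928, and begins beyond the immunoglobulin heavy chain locus (Igh). It was chosen by its level in these same arrays, lower in lymphoma mice than in the others, so levels, calls and group differences of level are given as a description, and no test of them is used. Array comparative genomic hybridisation was run once per mouse, with Cy5-labelled DNA of Atm-deficient thymocytes against Cy3-labelled DNA of wildtype thymocytes. A total of 8 mice had a T-cell lymphoma and 14 were macroscopically without findings, and none was treated. All 22 mice share the Atm deficiency, and wildtype DNA is present only as the comparison channel. Strain, age, sex and the kind of Atm allele are not in the labels, and the probe positions come with no named build. DNA ratios hold no expression markers, so the labelled cell type was not checked.

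A chromosome end is lost when a break leaves a fragment without a centromere or when an unbalanced exchange replaces it. In lymphocytes, breaks are made on purpose at the antigen receptor genes, and Atm holds the broken ends until they are joined. Igh lies close to the end of mouse chromosome 12, so the genes described here lie between that locus and the telomere. Each value is the log2 of Atm-deficient over wildtype signal, where 0 is the median of the autosomal probes of an array and -1 is the ratio of 1 copy in place of a pair in every cell. In bulk DNA, more cells with a loss and more copies lost per cell cannot be told apart.

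Noise, the robust spread of differences between neighbouring probes, was 0.15 to 0.37 in lymphoma arrays and 0.13 to 0.55 in the others. The Atm probe with the highest lymphoma mean was taken as a check of direction. As it was picked by that mean, its sign in lymphoma mice is no separate support for the direction. It read 0.95 to 1.32 in lymphoma mice but was negative in the 3 arrays of scan batch 2 (no-lymphoma mice 1, 3 and 4), at -1.08, -0.72 and -0.63. Mice 5 and 6 without lymphoma, in scan batch 3, also had low readings of 0.44 and 0.08. No-lymphoma mouse 9 read 1.69, the highest of all arrays. Over autosomal probes, 8 of 231 pairs of arrays correlated under -0.3, the lowest at -0.48, and each of these pairs includes no-lymphoma mouse 3, 4 or 9. The labels state the dyes, so the labelled direction was kept. With the sign turned, the terminal level difference between the groups was -0.79 for mice 3, 4 and 9 and -0.68 for scan batch 2, against -0.75 as labelled.

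The probes at the edges of the stretch delimit it, and they are printed with the probe of the lowest lymphoma mean.
First probe, 113820180 to 113820239, in Vipr2: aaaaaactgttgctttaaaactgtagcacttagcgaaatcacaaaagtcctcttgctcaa
Last probe, 117798869 to 117798928, in no named gene: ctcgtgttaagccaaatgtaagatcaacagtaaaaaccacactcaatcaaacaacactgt
Lowest probe, 114696719 to 114696778, in Ptprn2: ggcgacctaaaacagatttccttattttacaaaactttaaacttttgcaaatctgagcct
In lymphoma mice these 3 probes averaged -0.72 ± 0.34, -0.93 ± 0.28 and -1.23 ± 0.46 (SD, n = 8). In mice without lymphoma they averaged -0.07 ± 0.24, 0.03 ± 0.43 and -0.12 ± 0.31 (SD, n = 14). Of the 449 probes, 427 are 60 bases long, and the shortest has 49. Mean GC content is 36.6% here and 36.6% over all probes. Neither AGCT nor GTAC, the cutting sites of AluI and RsaI with which the DNA was digested, occurs in any of the 449 (0 of 449, searched in the probe as printed, both sites reading the same on either strand), and 0.0344% of all probes hold one of them. Neighbouring probes lie a median of 8102.5 bp apart, and the widest gap is 50184.5 bp.

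The terminal level was low in every lymphoma. Region means of lymphoma mice 1 to 8 were -0.37, -0.94, -0.86, -0.99, -0.97, -0.83, -0.88 and -0.90. Mice 2 to 8 lay close together, and mouse 1 stood apart with a much shallower loss. Means of no-lymphoma mice 1 to 14 were 0.48, -0.44, -0.01, 0.01, -0.02, 0.00094, -0.21, -0.02, -0.30, -0.0036, -0.62, -0.03, 0.03 and -0.23. Mice 3, 4, 5, 6, 8, 10, 12 and 13 of this group lay near 0, mice 2 and 11 were lower than lymphoma mouse 1, and the groups overlap. The group means were -0.84 ± 0.20 in lymphoma mice and -0.10 ± 0.26 in the others, a difference of -0.75, which normexp background correction reduced in size to -0.45. Scan batch 2 held no lymphoma and batch 4 held none either, and within batches 1, 3, 5 and 6 the difference was -0.30, -0.94, -0.55 and -0.89. Blocking on scan batch gave -0.68. The batch 1 value sets 3 lymphomas, mouse 1 among them, against no-lymphoma mouse 2 alone.

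**Figure D1:**
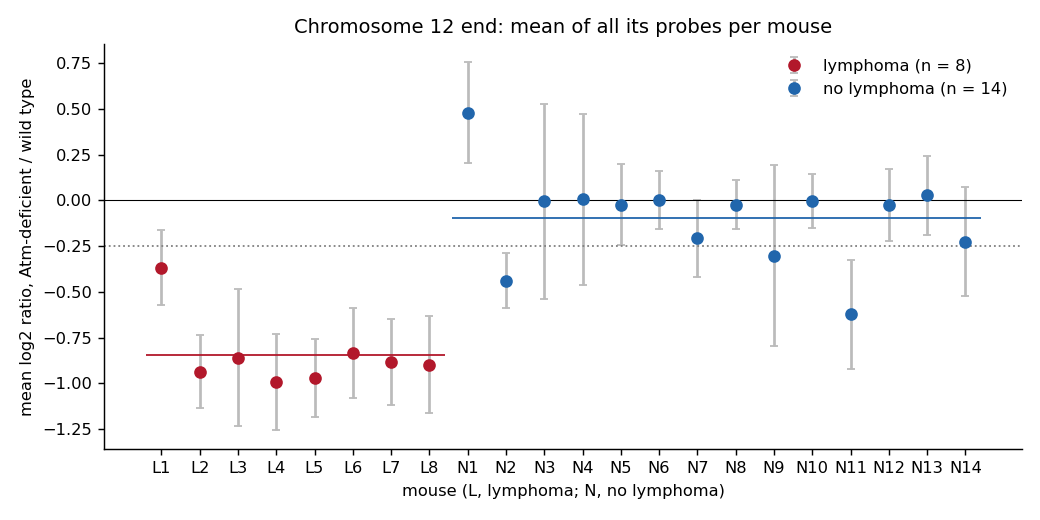
Mean log2 ratio of the 449 probes in each mouse (points; bars, SD over probes; horizontal lines, group means of -0.84 and -0.10), with the loss threshold of -0.25 dotted. Lymphoma mice 2 to 8 sit between -0.99 and -0.83, and no-lymphoma mouse 1 is the array with a gain, at 0.48.

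A loss was called where the segment over the centre of the stretch averaged -0.25 or less. Such a call was made in all 8 lymphoma mice, and among the 14 others in mice 2 and 11. Over all autosomes 3.6% of probe values in lymphoma mice and 1.3% in the others lay in segments called lost. Since the stretch was picked for this loss, nothing is read from that contrast. No-lymphoma mice 14, 9 and 7 came next, with segments at -0.248, -0.232 and -0.21 that missed the threshold. The count in mice without lymphoma therefore moves with the rule: it was 5 at a threshold of -0.2 and 1 at -0.4, and 4 with each array centred on its mode (mice 2, 9, 11 and 14). In lymphoma mice it was 7 at -0.4, and normexp correction left 6 calls in lymphoma mice and 1 in the others. In the array labelled no-lymphoma mouse 1 the segment read 0.49, a gain. That array belongs to scan batch 2, in which the Atm probe goes against the other arrays, and with the sign of the batch turned it was called lost, giving 3 calls without lymphoma. It correlated at -0.21 to 0.21 with the other arrays, which does not settle its direction.

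The level was even over the stretch, though not flat. Of the 449 probes, 445 had a lymphoma mean below -0.25, against 8.12% of autosomal probes. Lymphoma means of single probes had a median of -0.85, with the 5th and 95th percentiles at -1.05 and -0.59. In windows of 20 probes, the highest window of any lymphoma mouse other than mouse 1 was -0.62, and in mouse 1 it was -0.23. The spread over probes was 1.01 to 1.45 times the array's noise in lymphoma mice and 0.95 to 1.39 times in the others. Probe profiles within the stretch correlated over 447 probes with a median r of 0.30 between lymphoma mice, from -0.20 to 0.71, and of 0.18 between mice without lymphoma, from -0.47 to 0.89. These arrays share probe sequences and a wildtype channel.

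The 4 probes whose lymphoma mean was not below -0.25 are the exceptions to this evenness. They are printed so that their sequences can be set beside the others.
Ptprn2, 114443605 to 114443664: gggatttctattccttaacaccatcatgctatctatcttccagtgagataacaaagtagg
Ptprn2, 114952077 to 114952136: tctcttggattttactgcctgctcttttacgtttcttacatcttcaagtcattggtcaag
Ptprn2, 114974700 to 114974759: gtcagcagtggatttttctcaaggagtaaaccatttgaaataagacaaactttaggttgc
Dnah11, 115780158 to 115780212: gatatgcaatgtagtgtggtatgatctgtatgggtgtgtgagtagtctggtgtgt
In that order they averaged -0.17 ± 0.77, -0.02 ± 0.82, -0.20 ± 0.31 and -0.15 ± 0.36 in lymphoma mice (SD, n = 8), and -0.13 ± 1.05, 0.18 ± 0.33, -0.30 ± 0.44 and 0.09 ± 0.23 in mice without lymphoma (SD, n = 14). The first ranged from -1.31 in lymphoma mouse 3 to 0.88 in lymphoma mouse 7, and the second from -1.17 in lymphoma mouse 5 to 1.03 in lymphoma mouse 6. No other probe interrupted the loss in the group mean, and no segment within the stretch rose above the threshold in a lymphoma mouse.

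**Figure D2:**
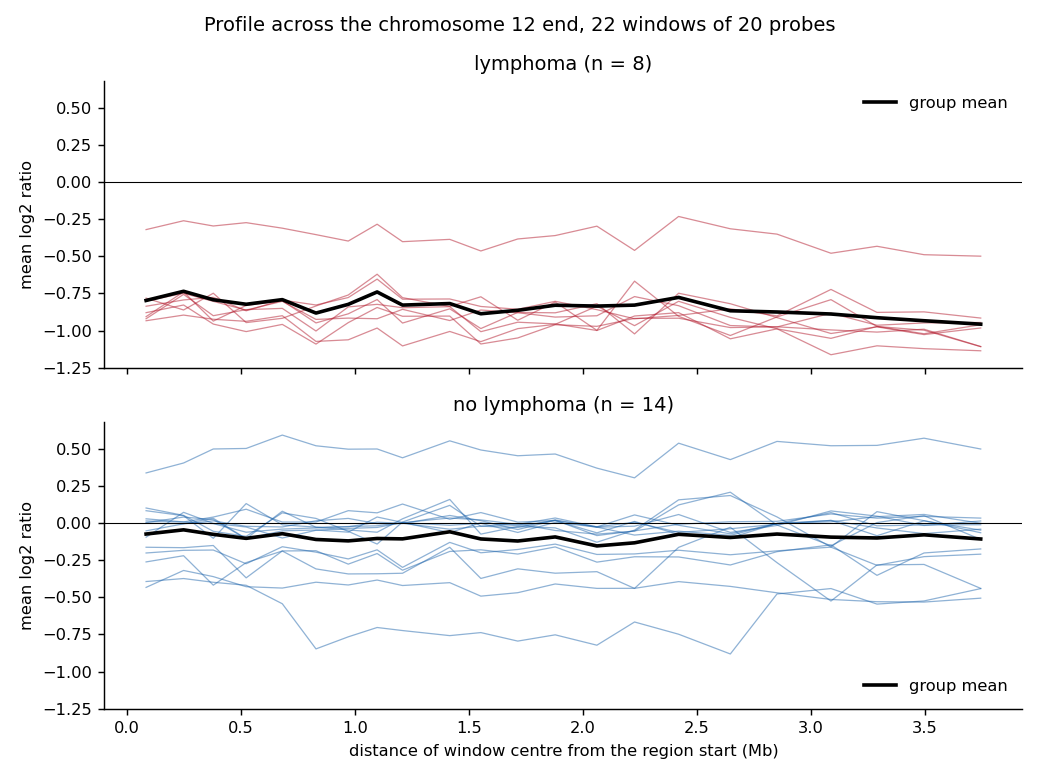
Mean log2 ratio in 22 windows of 20 probes against the distance from the start of the stretch, for lymphoma mice (upper panel) and mice without lymphoma (lower panel); thin lines are mice and thick lines group means. The lymphoma mean is -0.80 in the first window and -0.96 in the last; in no-lymphoma mice the same windows average -0.08 and -0.11.

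The outer probes were lower than the inner ones in lymphoma DNA. The outer 225 probes, from 115481529 on, averaged -0.87 ± 0.20 and the inner 224 averaged -0.81 ± 0.20 in lymphoma mice. The difference, outer minus inner, was -0.06 ± 0.04 and was negative in 8 of 8 mice, from -0.11 to -0.01 (exact two-sided sign-flip test, p = 0.0078, adjusted over 2 tests 0.0078, the smallest p that 8 mice allow). In mice without lymphoma it was -0.01 ± 0.02 (SD, n = 14) and negative in 13 of 14, from -0.06 in mouse 2 to 0.0026 in mouse 5. The groups differed by -0.049 (exact two-sided permutation test over 319770 splits, p = 0.00035, adjusted p = 0.0007). Blocked on scan batch, it was -0.037 and did not pass (exact permutation, adjusted p = 0.0868). Within batches 1, 3, 5 and 6 it was -0.00069, -0.078, -0.032 and -0.022. The groups also differ in level, by which the stretch was chosen. Whether the outer minus inner difference follows the level was not tested, so the group test does not separate the 2. Mean GC content of the inner and outer probes was 36.8% and 36.4%, and over single probes GC content and lymphoma mean correlated at r = 0.13 (449 probes, which share arrays and a chromosome) and over the 22 windows of 20 probes at r = 0.37. The part of base composition in the difference was not tested.

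**Figure D3:**
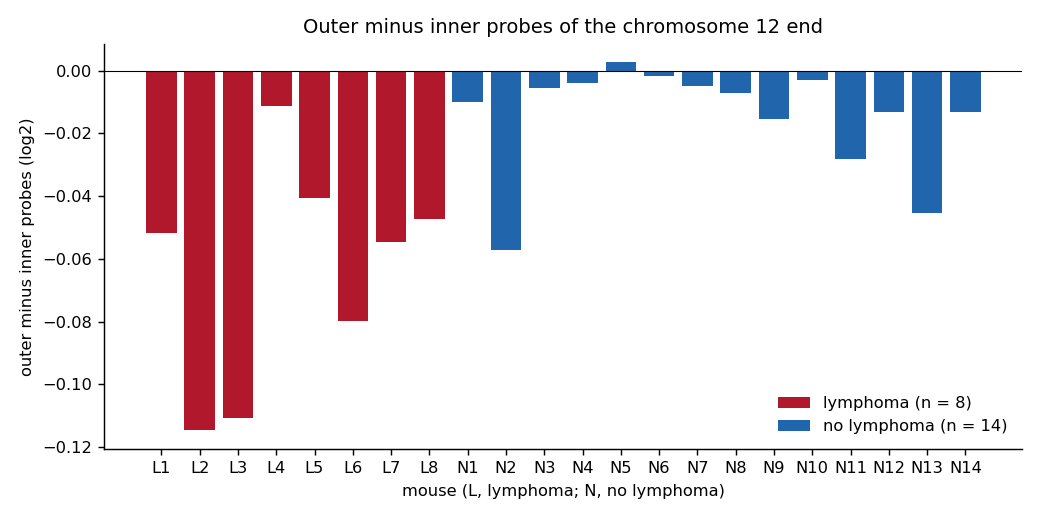
Outer 225 minus inner 224 probes (log2) in each mouse, as bars from 0. All 8 lymphoma mice lie below 0, between -0.11 and -0.01; the lowest mouse without lymphoma is mouse 2, at -0.06.

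Segmentation placed this decline at steps. Of the 8 lymphoma mice, 7 had 2 segments reaching into the stretch, and mouse 3, the noisiest, had 1. In every array the innermost of these segments began before the stretch, so its level includes probes outside it. In mouse 1 the level was -0.47 from 116659323 to the end and -0.34 before it. The step in mouse 8 fell at the same probe, with -1.004 beyond it and -0.86 before it. In mouse 4 the level was -1.12 beyond 116701800 and -0.96 before, and in mouse 2 it was -1.04 beyond 116353855 and -0.90 before. The probe of Sp8, a zinc-finger transcription factor gene, starts at 116638735, between the steps of mice 2 and 1. The steps of mice 5, 6 and 7 lay further inward, at 114171092 in Ncapg2, at 115875565 in Dnah11 and at 114457872 in Ptprn2, and in each the outer segment was again the lower one.

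Both no-lymphoma mice with a called loss had steps too. In mouse 2 the level was -0.51 beyond 116486008 and -0.40 before it. Mouse 11 had 3 levels, -0.45 up to 114512734, -0.77 from 114522205 to 116599089 and -0.49 from 116605235 to the end. Its first step lies inside Ptprn2, and the adjoining probes are printed because segmentation placed the step between them. How precisely the step is placed was not tested.
Ptprn2, 114512675 to 114512734, last probe before the step: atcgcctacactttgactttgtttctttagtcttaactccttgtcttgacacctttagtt
Ptprn2, 114522205 to 114522264, first probe after the step: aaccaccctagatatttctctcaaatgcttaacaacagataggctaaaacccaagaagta
Mouse 11 was the only mouse with 3 segments, and thus the only one with a middle segment, which was lower than both its neighbours. The 12 other mice without lymphoma had no called loss in the stretch. Among them mouse 1, read as a gain, also had a step, at 114157857 in Ncapg2. Its level was 0.39 before that step, over a segment of 1255 probes that began at 101996882, and 0.49 beyond it. The rest had no step.

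The loss did not begin at the start of the stretch. The last 10 probes before it averaged -0.81 ± 0.21 in lymphoma mice and -0.08 ± 0.24 in the others, and the first 10 probes within it averaged -0.78 ± 0.21 and -0.08 ± 0.20. In lymphoma mice 2, 3, 5 and 6, segments called lost ran without a break of 20 or more probes from 98521898, 97552433, 97482779 and 97923576 to the chromosome end. In mouse 4 they ran from 103361569. In mouse 8 the run counted this way began at 109705998, after a segment of 20 or more probes at -0.20 that missed the threshold. Windows of 50 probes in lymphoma mouse 8 were nevertheless -0.32 or lower from the window centred at -11.42 Mb from the start of the stretch to the end. From 100 to 106 Mb these 6 mice averaged -0.82, -0.87, -0.22, -0.84, -0.85 and -0.42 (mice 2 to 6 and 8), and lymphoma mice 1 and 7 averaged 0.02 and -0.15. In mice 1, 4, 7 and 8 these are means over mixed levels. Windows of 50 probes within this interval ranged from 1.28 down to -0.68 in lymphoma mouse 1 and from 0.09 down to -0.74 in lymphoma mouse 7, so both had low windows there too.

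The terminal loss of lymphoma mice 1 and 7 and of no-lymphoma mouse 2 had a sharp inner edge. It began at one and the same probe, at 110953308, which the array files name LOC238447 and describe as similar to an immunoglobulin heavy chain variable region. The 10 probes before that position averaged 0.53 in lymphoma mouse 1, 1.16 in lymphoma mouse 7 and 1.005 in no-lymphoma mouse 2. From there to the start of the stretch the same mice averaged -0.33, -0.77 and -0.77. In no-lymphoma mouse 2 the segment that reached into the stretch began only at 112101589, at -0.40. The level next to the edge was thus lower than the terminal level in that mouse. In no-lymphoma mouse 11 the loss resumed at 110958969, and the 10 probes before 110953308 averaged 0.16. In the other 6 lymphoma mice the 10 probes averaged -0.82 to -0.65, so no edge was present there. A gain next to the run of called loss was thus measured in 3 mice, 2 with lymphoma and 1 without.

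**Figure D4:**
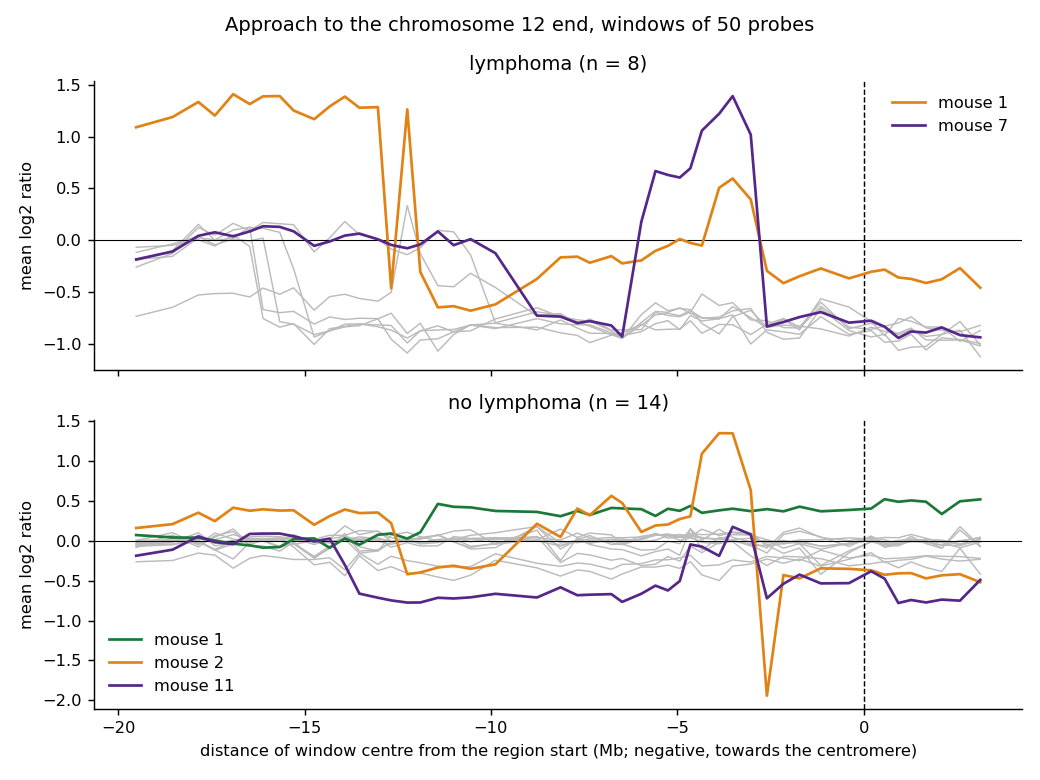
Mean log2 ratio in windows of 50 probes against the distance from the start of the stretch (dashed line), for lymphoma mice (upper panel) and mice without lymphoma (lower panel). In the window at -3.51 Mb lymphoma mice 1 and 7 read 0.60 and 1.39, and at -2.15 Mb, beyond the edge, -0.41 and -0.79; no-lymphoma mouse 2 is likewise above 0 at the first and below 0 at the second, and all 3 also have windows below 0 further from the end. The other lymphoma mice (grey) are below 0 at both.

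The stretch held 25 gene names in the array files, 13 of them with at least 3 probes, and 276 of its probes carry a name. Of the 13 genes, 12 averaged below -0.25 in every lymphoma mouse, against 0.169% of all 12991 genes with at least 3 probes. The exception is the clone AK020318, at -0.24 in lymphoma mouse 1. Lymphoma means of the 13 ran from -1.004 to -0.73 with a median of -0.83, and no-lymphoma means from -0.18 to 0.01 with a median of -0.09. The median over all 12991 genes was 0.05 in lymphoma mice. Genes called lower in lymphoma by limma at an adjusted p under 0.05 made up 2.51% of all genes and included these 13. The stretch was chosen by that very contrast, so the count restates the choice and nothing is read from it.

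Ptprn2, a transmembrane phosphatase-like protein of dense-core secretory granules, is the longest gene here, with 117 probes from 114218603 to 115008248. Its level in lymphoma mice was -0.99 at the lowest, -0.86 at the median and -0.32 at the highest, and in the others -0.65, -0.04 and 0.51. Lymphoma mouse 1 was the highest of its group and lay above no-lymphoma mice 2 and 11, at -0.41 and -0.65. Dnah11, an axonemal dynein heavy chain of motile cilia, had 44 probes and read -0.97, -0.89 and -0.33 at the lowest, median and highest lymphoma mouse, against -0.79, -0.03 and 0.42. Wdr60, which belongs to the dynein of transport within cilia, averaged -0.73 ± 0.16 in lymphoma mice and 0.01 ± 0.25 in the others, the weakest lymphoma mean of the 13 (3 probes).

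Rapgef5, an exchange factor for Rap GTPases, had 35 probes and read -1.04, -0.89 and -0.40 at the lowest, median and highest lymphoma mouse, against -0.75, -0.01 and 0.51 in mice without lymphoma. Vipr2, a receptor for vasoactive intestinal peptide, straddles the start of the stretch and averaged -0.79 ± 0.21 in lymphoma mice and -0.05 ± 0.20 in the others (10 probes). Esyt2, which tethers the endoplasmic reticulum to the plasma membrane, averaged -0.77 ± 0.20 and -0.06 ± 0.20 (12 probes).

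Ncapg2, a subunit of the condensin II complex that compacts chromosomes, read -0.98, -0.79 and -0.32 at the lowest, median and highest lymphoma mouse and -0.40, 0.04 and 0.54 in mice without lymphoma (11 probes). No-lymphoma mouse 11 had -0.36 here, shallower than its -0.75 at Rapgef5, -0.79 at Dnah11 and -0.76 at Sp4, as Ncapg2 lies on the inner side of its first step. Cdca7l, a nuclear protein that binds Myc, averaged -0.93 ± 0.22 in lymphoma mice and -0.13 ± 0.29 in the others (5 probes).

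Sp4, a zinc-finger transcription factor, read -0.98, -0.89 and -0.46 at the lowest, median and highest lymphoma mouse and -0.76, -0.07 and 0.35 in mice without lymphoma (9 probes). Its relative Sp8 rests on 1 probe, which averaged -0.81 ± 0.23 in lymphoma mice and -0.08 ± 0.34 without lymphoma. Zfp386, a zinc-finger gene just before the start of the stretch and so no member, averaged -0.82 ± 0.19 and -0.02 ± 0.28 (3 probes). The lowest lymphoma mean among the 13 belonged to AK028965, a clone that the RefSeq table lists under Macc1, a regulator of the Met receptor gene in human tumours, with -1.004 ± 0.20 in lymphoma mice and -0.18 ± 0.27 in the others (3 probes). AK020318, listed under the drug transporter gene Abcb5, averaged -0.82 ± 0.25 and -0.06 ± 0.32 (3 probes). AK082444, described in the array files as similar to integrin beta 8, averaged -1.001 ± 0.24 and -0.15 ± 0.27 (7 probes). Of the listed genes, Itgb8 and Tmem196 had no probe under their own names, and Polr1f, under its former name Twistnb, is placed elsewhere on chromosome 12 by the array files.

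**Figure D5:**
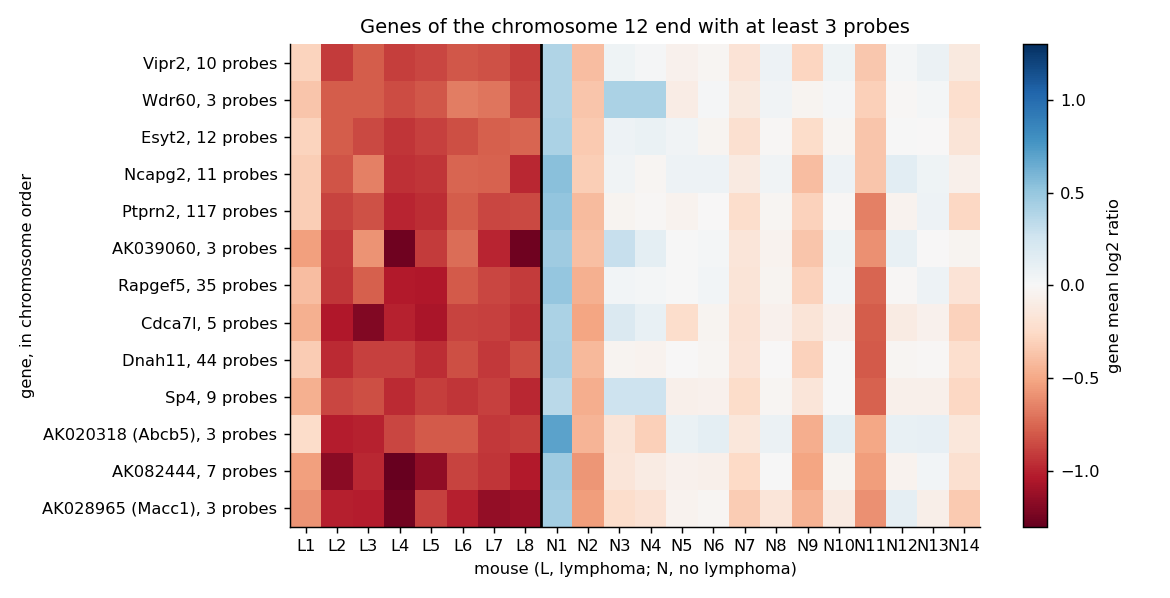
Mean log2 ratio of each gene with at least 3 probes (rows, in chromosome order) in each mouse (columns, lymphoma left of the black line). Lymphoma mice 2 to 8 are low in every row; in no-lymphoma mouse 11 the rows from Ptprn2 to Sp4 are lower than Vipr2 to Ncapg2.

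Ptprn2 also hosts the microRNA gene of miR-153 in the RefSeq table. No probe is named for it, and its place in the stretch rests on the host gene's name alone, since its position was not set on the array's coordinates. Mature sequences are from RefSeq (GRCm38.p6), with the seed, bases 2 to 8, in capitals.
mmu-miR-153-5p: gUCAUUUUugugacguugcagcu
mmu-miR-153-3p: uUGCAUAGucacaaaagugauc
The DNA level of their host gene is that given for Ptprn2, and no RNA was measured.

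Among lymphoma mice the terminal level was set against 5 other measures, with exact permutation p-values adjusted over the 5. Of these, 4 lie on other chromosomes, and Meg3 lies on chromosome 12 itself. For the chromosome 15 median Pearson's r was 0.14 (exact permutation p = 0.636, adjusted p = 0.823) and Spearman's rho -0.19 (p = 0.665, adjusted p = 1). For Psmc6, in the chromosome 14 amplicon, r was -0.07 (exact permutation p = 0.823, adjusted p = 0.823) and rho 0.05 (p = 0.935, adjusted p = 1). For Nrg3, on chromosome 14, r was 0.10 (exact permutation p = 0.819, adjusted p = 0.823) and rho 0 (p = 1). For Ncstn, on distal chromosome 1, r was -0.53 (exact permutation p = 0.154, adjusted p = 0.385) and rho -0.43 (p = 0.299, adjusted p = 0.748). None of the 4 passed. After normexp correction r with chromosome 15 was -0.83 and passed (exact permutation, adjusted p = 0.0276), and r with Nrg3 was -0.52 and did not (exact permutation, adjusted p = 0.179).

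Meg3, an imprinted non-coding RNA gene on chromosome 12 before Igh, gave r = 0.92 (exact permutation p = 0.037, adjusted p = 0.185) and rho = 0.48 (p = 0.243, adjusted p = 0.748), which did not pass after adjustment; after normexp correction r was 0.91 and passed (exact permutation, adjusted p = 0.0124). The relation rests on lymphoma mouse 1, which had the shallowest terminal loss and read -0.09 at Meg3. Meg3 read -0.89 to -0.67 in lymphoma mice 2 to 6, where segments called lost ran from before Igh to the chromosome end. In these mice both levels can thus be parts of the same loss, and r cannot be read as a relation between separate changes. Meg3 was also low in lymphoma mice 7 and 8, at -0.74 and -0.61. Their runs to the chromosome end began at 110953308 and 109705998, after levels of 1.27 and -0.20. Whether the Meg3 level and the terminal level belong to 1 loss in mice 7 and 8 was not tested. Without the 2 mice farthest from the median terminal level, mice 1 and 4, r was 0.11 for Meg3, 0.0032 for chromosome 15, 0.12 for Psmc6, 0.34 for Nrg3 and 0.26 for Ncstn (6 mice).

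Ends of the same length on the 18 other autosomes were set beside it as a description. Their lymphoma means ran from -0.23 to 0.56, and at most 3 of 8 lymphoma mice lay at or below -0.25 at any one of them, against 8 of 8 at the chromosome 12 end. Of the 14 mice without lymphoma, 3 lay at or below -0.25 at the chromosome 12 end and 3 at the chromosome 14 end. These counts use the mean over an end and not a segment call, so no-lymphoma mouse 9, at -0.30, is among those at chromosome 12. The median of chromosome 12 before the stretch was -0.06 ± 0.05 in lymphoma mice and 0.01 ± 0.08 in the others. In no-lymphoma mouse 2 it was 0.26, so the terminal level of -0.44 there lay below a raised remainder of the chromosome.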

How the data were processed

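Members and gene lists were chosen with earlier results of these data known. The authors deposited 1 two-colour Agilent scanner file per mouse, with processed spot intensity after background subtraction and dye normalisation, as the file headers state (per the file headers, Feature Extraction 9.1.3.1; the submitters' processing notes name version 9.1), and a deposited value table. The deposited table equals the log10 ratio of red (Cy5) over green (Cy3) that the scanner files list (largest difference 0 over 22 arrays), with no further centring. Column medians ran from -0.0199 to 0.00646 in lymphoma and from -0.00572 to 0.0164 in the other arrays. In no-lymphoma mouse 11 the listed ratio differed from the ratio of processed signals, by 0.0651 at a high percentile of the spots. In every other array the same measure was at most 3.45e-07. Positions and names come from the files that carry them, joined by spot number. Here log2 ratios of the processed signals were taken, outlier-flagged spots left out, spots averaged per probe and arrays centred on the autosomal median, with no loess or quantile step. Segments came from optimal partitioning (penalty per break 3 × log of the number of probes × squared noise, at least 5 probes, single probes limited to 4 noise SD from the running 7-probe median). Gene means of at least 3 probes were fitted with limma 3.58.1 in R 4.3.3, Benjamini-Hochberg adjusted over 12991 autosomal genes; genes on more than 1 chromosome or spanning over 3 Mb were left out. Of the 25 names in the stretch, 6 matched a RefSeq symbol (GRCm38.p6), 4 a synonym and 15 stayed as clone accessions, some of which the table lists by clone name. The planned genes named were Dnah11, Rapgef5, Sp4, Ncapg2, Ptprn2, a list by role, and the lowest and highest lymphoma mean of genes with at least 3 probes. Segmentation and limma were tested on simulated data. Scan batches were read from the headers. Each array is labelled as 1 mouse; precision is limited by how many arrays there are. Python 3.11.15, numpy 2.4.6 and numba 0.67.0 were used.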

Additional observations from a re-analysis of the deposited data

Results flagged for a closer look

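Lymphoma mouse 1 lay apart from the other 7 lymphoma mice by Dixon's test for 8 values, in which the gap to the nearest value is divided by the range. Chance gives such a flag in about 1 in 20 groups, and 25 overlapping measures were tested. For the region mean the share was 0.742, for the inner probes 0.698 and for the outer probes 0.79, with mouse 1 the highest each time. Its gene means stood apart by 0.818 at Vipr2, 0.732 at Esyt2, 0.601 at Wdr60, 0.699 at Ptprn2, 0.585 at Rapgef5, 0.565 at Cdca7l, 0.79 at Dnah11, 0.729 at Sp4, 0.708 at AK020318 (Abcb5), 0.695 at Zfp386 and 0.643 at Meg3. Lymphoma mouse 8 was low in the chromosome 15 median (0.15), with a share of 0.641. The outer minus inner difference was larger in size in lymphoma mice than in mice without lymphoma, by -0.0491. This tested group difference did not pass with scan batch as a block, and whether it follows the terminal level was not tested.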

How the results depend on the processing

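Of 13 results under their alternatives, 181 of 202 values were labelled the same. They kept direction and side of the threshold, moved by less than the spread or, for counts, stayed within a set ratio. Such a count went from 326 to 238 genes lower in lymphoma with the sign of scan batch 2 turned. Normexp (offset 50) used median signals, since not every file holds mean signals: it gave -0.45 for the level difference, -0.50 for the lymphoma level, 6 loss calls in lymphoma mice and 1 in the others, -0.83 (adjusted p = 0.0276, exact permutation) for the correlation with chromosome 15, -0.52 with Nrg3, and 0.91 (adjusted p = 0.0124, exact permutation) with Meg3; the cause was not tested. Mode centring gave 4 calls without lymphoma and 0.0408 with Psmc6; the threshold -0.2 gave 5 and -0.4 gave 1; the sign of scan batch 2 turned gave 3. With scan batch as a block the outer minus inner group difference was -0.0369 (exact permutation, adjusted p = 0.0868). Without lymphoma mouse 1 the correlation was -0.17 with chromosome 15, 0.54 with Psmc6 and -0.26 with Nrg3. Leaving out each lymphoma mouse gave -0.81 to -0.72 for the level difference, -0.91 to -0.82 for the lymphoma level, -0.07 to -0.06 for outer minus inner, -0.06 to -0.04 for its group difference, and r of -0.17 to 0.24, -0.41 to 0.54, -0.26 to 0.43, 0.25 to 0.97 and -0.73 to -0.18 with chromosome 15, Psmc6, Nrg3, Meg3 and Ncstn. Genes lower in lymphoma by limma numbered 326 (27.3% of calls), 97 (9.0%) with mode centring, 60 with normexp, 130 without scan batch 2, 186 without the noisiest arrays, 52 with batch as a block and, chosen after seeing the data, 641 with the sign of 3 arrays turned; with genes of 1 probe included, 25 terminal genes were among the calls in place of 13, which restates how the stretch was chosen. The deposited value table, also added after seeing the data, changed no loss call and gave 352 genes lower. No paired analysis was possible because each array is labelled as a different mouse, and each mouse belongs to 1 group only.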
